A study of Mus musculus with 2 samples.

Results

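Nuclear-encoded subunits of the oxidative phosphorylation machinery were examined in mouse hippocampus at postnatal day 10. Members were taken by symbol: those beginning Ndufa, Ndufb, Ndufc, Ndufs or Ndufv with a number, Sdha to Sdhd, and those beginning Uqcr, Cox4 to Cox8, or Atp5, where the gene had at least 1 transcript annotated as protein_coding. This gave 85 of 55536 annotated genes, which carry 84 symbols because Atp5o is listed under 2 gene identifiers. By published subunit roles 35 members belong to complex I, 4 to complex II, 8 to complex III, 18 to complex IV and 17 to complex V, while 3 matched the symbols but are not counted as subunits here (Cox7a2l, Atp5s and Ndufa4l2). Ndufa4, named for complex I, was placed with complex IV, to which its protein is now assigned. A further 12 matching genes had no protein_coding transcript and were left out.

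Both libraries are total RNA-seq of hippocampal tissue from the B6CASTF1/J strain, a hybrid of C57BL/6J and CAST/EiJ, labelled male, aged 10 days, untreated as far as the labels say, and started from 300 ng of RNA. Each label names 3 males, and whether a library is a pool of them is not spelled out. There is 1 group of 2 biological replicates, so no condition was compared, and a comparison of replicate 1 with replicate 2 is between libraries. Replicate 2 goes against its label: Xist, the RNA of the inactive X chromosome, had 25 counts in replicate 1 and 30841 in replicate 2, and the Y-linked Ddx3y had 2164 and 0 counts. These counts of replicate 2 are of the female kind although both libraries are labelled male, and the cause of the mismatch was not tested. The tissue label was checked on its markers: Slc17a7 and Camk2a of excitatory neurons had 509 and 551 TPM and 788 and 882 TPM, and Prox1 of dentate granule cells had 47.7 and 49.6 TPM. Gene tables held 32035705 and 29747193 expected counts. Levels are TPM, a unit that divides a gene's counts by its length and scales each library to the same total. The main values come from alignments to the transcriptome, and a second set was estimated per transcript from the FASTQ reads. Nuclear protein-coding genes as a whole summed to more TPM in the second set. A TPM of 1 route is therefore not on the same scale as that of the other.

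Oxidative phosphorylation makes most of the ATP of a neuron. Complexes I and II feed electrons from NADH and succinate into ubiquinone, complex III passes them to cytochrome c, complex IV reduces oxygen, and the protons pumped by complexes I, III and IV drive the rotary ATP synthase, complex V. A small set of core subunits is encoded by the mitochondrial genome, and the rest, including every subunit of complex II, by nuclear genes whose products are imported. Several complex IV subunits and the c subunit of complex V exist as paralogues, some of them expressed mainly in muscle, brown fat or testis.

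The c subunit, the proteolipid whose ring turns in the membrane, is made from 3 nuclear genes, and its coding sequence is shown because that of Atp5g2, whose level differed between the quantification routes, is shared with a pseudogene. Below is the last 225 bases of each coding sequence before the stop codon, on the coding strand, from GENCODE M21 transcripts (mm10), with the 57 positions at which the genes are not all the same in capitals. Atp5g1 lies within chr11:96073107-96073635, Atp5g2 within chr15:102663017-102665166 and Atp5g3 within chr2:73908596-73909296, all on the minus strand, and each interval includes introns.
Atp5g1: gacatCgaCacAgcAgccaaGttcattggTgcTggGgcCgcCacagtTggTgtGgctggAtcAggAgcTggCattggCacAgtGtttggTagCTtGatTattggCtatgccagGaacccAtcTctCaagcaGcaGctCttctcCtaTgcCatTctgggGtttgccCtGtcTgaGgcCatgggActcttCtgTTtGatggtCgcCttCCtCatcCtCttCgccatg
Atp5g2: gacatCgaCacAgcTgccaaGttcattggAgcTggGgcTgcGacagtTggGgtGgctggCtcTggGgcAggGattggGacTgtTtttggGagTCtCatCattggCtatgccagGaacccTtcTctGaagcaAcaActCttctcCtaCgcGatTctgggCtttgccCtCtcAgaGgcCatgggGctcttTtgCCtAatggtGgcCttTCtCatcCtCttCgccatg
Atp5g3: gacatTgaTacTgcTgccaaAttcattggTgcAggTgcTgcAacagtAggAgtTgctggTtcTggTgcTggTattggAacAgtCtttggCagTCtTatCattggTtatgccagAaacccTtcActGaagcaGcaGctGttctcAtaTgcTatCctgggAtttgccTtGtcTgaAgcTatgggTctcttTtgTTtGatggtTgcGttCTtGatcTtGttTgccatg
All 75 codons give the same residues in all 3 genes, although 34 bases differ between Atp5g1 and Atp5g2, 45 between Atp5g1 and Atp5g3 and 48 between Atp5g2 and Atp5g3. The longest run shared by all 3 is 8 bases, so the genes can be told apart from each other at base level. The Atp5g2 stretch, however, is present without a difference in Gm10175, a transcribed processed pseudogene on chromosome 7 (23946646 to 23947290), and in Gm10231, a processed pseudogene on chromosome 17 that had 0 counts in both libraries. A processed pseudogene is a copy of a spliced transcript inserted elsewhere in the genome.

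Levels of the members were high. Of the 85 genes, 80 reached 1 TPM in both libraries, 73 averaged at least 50 TPM and 49 at least 100 TPM. The median member had 113 TPM, against 15.7 TPM for the median of 13062 nuclear protein-coding genes detected at 1 TPM in both libraries. Ranked among nuclear protein-coding genes, 3 members were in the first 100, 28 in the first 500 and 52 in the first 1000. Together the members are 0.386% of nuclear protein-coding genes and held 2.61% of the TPM of such genes in replicate 1 and 2.64% in replicate 2. On expected counts, which are not divided by length, the same share was 0.725% ± 0.00538 (SD, n = 2). Most members are short transcripts, with a median length of 742 bases.

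By complex, median levels were lowest for complexes I and II. Complex I members had medians of 92.7 and 88.9 TPM in replicates 1 and 2, and complex II members 95.4 and 92.1 TPM. The medians were higher for complex III, at 171 and 175 TPM, and for complex V, at 177 and 174 TPM. Complex IV had medians of 167 and 159 TPM over 18 members, a figure that mixes 11 subunits expressed in most tissues (322 and 333 TPM) with 7 tissue isoforms (0.95 and 1.11 TPM). The plot of levels by complex shows both libraries almost on top of each other, apart from the lowest genes. Complex II was above complex I in both libraries, but by less than either complex differed between the libraries. The order of III and V over all members differed between the libraries. Without the second Atp5o identifier, at 0 counts, complex V had medians of 179.3 and 179.0 TPM, above complex III in both libraries. By the FASTQ route the medians were 156, 126, 291, 392 and 338 TPM for complexes I to V, which puts complex II lowest and complex IV highest.

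**Figure D1:**
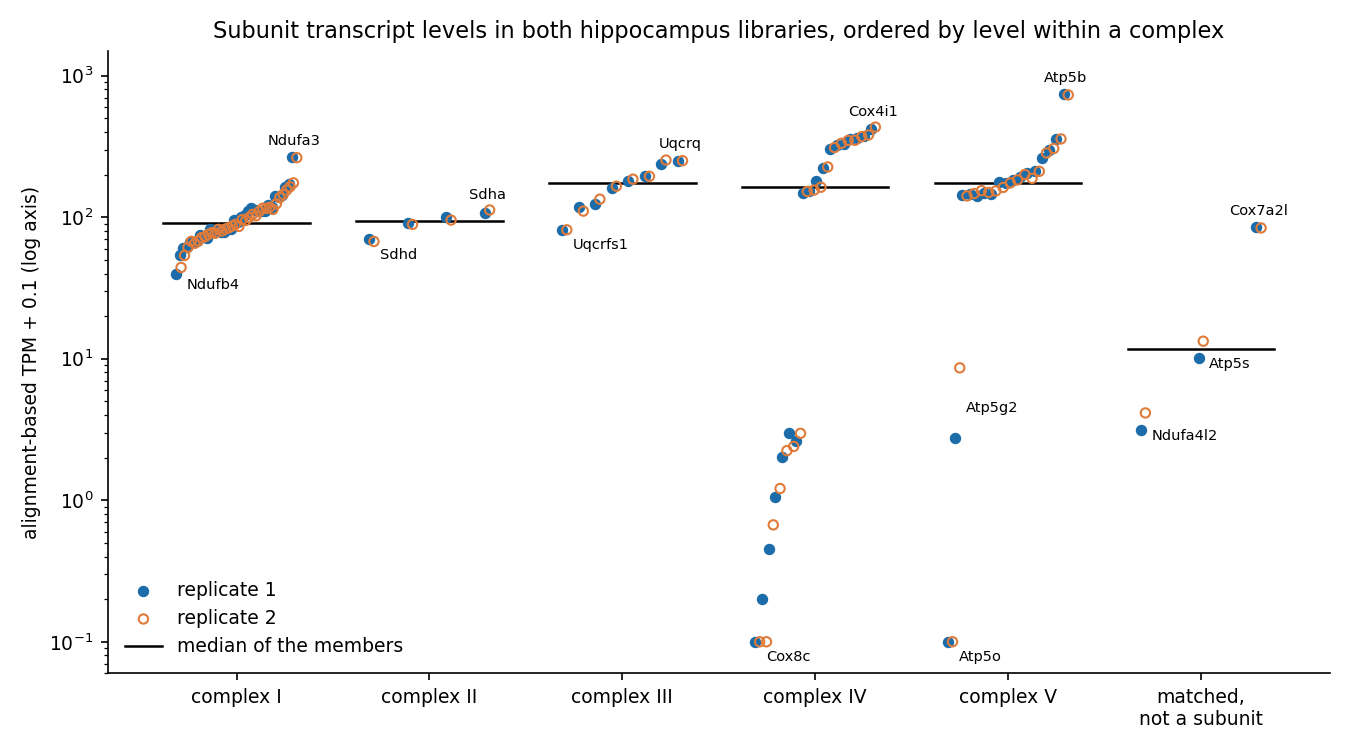
TPM by the alignment route, with 0.1 added, on a log axis for each member in replicate 1 (filled) and replicate 2 (open), ordered by level within each complex; bars are medians over the members. Mean levels of complex I members lie between 41.8 and 265 TPM, Atp5o at the bottom of complex V is its second identifier, and complex IV splits into 11 genes with means of 150.4 TPM or more and 7 tissue isoforms with means of 2.69 TPM or less.

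Complex I, NADH dehydrogenase, has a core that carries flavin and iron-sulfur clusters and accessory subunits that surround it. The 7 core genes had medians of 92.7 and 94.7 TPM and spanned a 1.86-fold range. Ndufv2, an iron-sulfur subunit of the NADH-oxidising arm, had 110.3 and 116 TPM. Ndufs3, a subunit of the same peripheral arm, had 100.3 and 94.7 TPM. The lowest core genes were Ndufs8, with 60.2 and 61.1 TPM, and Ndufs1, the largest subunit, with 66.3 and 65.3 TPM. The values of Ndufs8 and Ndufs1 did not overlap, and all were below those of Ndufv2 and Ndufs3.

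The 28 accessory genes had medians of 88.5 and 87.7 TPM and spanned a wider, 6.35-fold range. Ndufa3 was highest, with 267 and 263 TPM, followed by Ndufb8 at 172 and 175 TPM and Ndufb9 at 164 TPM in both. These are small membrane-arm subunits. At the other end Ndufb4, also of the membrane arm, had 39.5 and 44.0 TPM and Ndufb3 had 54.0 and 53.5 TPM. Both ends depended on the route: Ndufa3 averaged 108 TPM and Ndufb4 172 TPM by the FASTQ route, which reverses their order. Mouse Ndufb1 appears in the annotation as Ndufb1-ps, a non-coding class of transcript, and was left out by the rule, with 58.6 and 54.5 TPM.

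All 4 subunits of complex II, succinate dehydrogenase, were within 1.60-fold of each other. Sdha, the flavoprotein, had 107 and 112 TPM, and Sdhc, a membrane anchor, had 100.1 and 95.3 TPM. The iron-sulfur subunit Sdhb had 90.7 and 88.8 TPM, and the anchor Sdhd was lowest at 69.6 and 67.3 TPM. By the FASTQ route Sdhb was highest, averaging 159 TPM, and Sdhc lowest at 93.5 TPM. Every one of these is nuclear, so complex II has no mitochondrial-genome partner to compare with.

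In complex III the 4 highest genes all encode small subunits. Uqcrq, the ubiquinone-binding protein, had 249 and 251 TPM, Uqcr11 had 236 and 253 TPM, and Uqcr10 had 196 and 194 TPM. Uqcrc2, a core protein, had 118 and 110.3 TPM. Uqcrfs1, the Rieske iron-sulfur protein that carries electrons to cytochrome c1, was lowest with 81.4 TPM in both libraries, and Uqcrq was 3.07-fold higher than it. Uqcrfs1 was lowest by the FASTQ route too, at 112 TPM, but Uqcr11 was highest there, at 453 TPM.

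Complex IV, cytochrome c oxidase, held the highest levels outside complex V. Cox4i1, a regulatory subunit that binds ATP, had 417 and 433 TPM. Cox8a had 374 and 381 TPM and Ndufa4 had 366 and 371 TPM. The lowest of the 11 widely expressed subunits were Cox7b, at 149 and 152 TPM, and Cox7a2, at 153 and 155 TPM. By the FASTQ route the order was another: Cox6c was highest, averaging 764 TPM, and Cox5a lowest at 353 TPM, with Cox7b at 393 TPM and Cox7a2 at 420.3 TPM. By alignment the mean of Cox7b was 55.9-fold above that of Cox7a1, the highest of the 7 tissue isoforms.

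Complex V held the highest level of any member. Atp5b, the catalytic beta subunit of the F1 head, had 739.8 and 731 TPM and had rank 29 among nuclear protein-coding genes. Atp5a1, the alpha subunit, which is present in the same number of copies in the enzyme, had 358 and 357 TPM. The rest of the head, Atp5d, Atp5e and Atp5c1, had 143 to 175 TPM on average. Of the stalk and membrane genes, Atp5o (the first identifier) averaged 211 TPM and Atp5mpl 197 TPM, and the others lay between 146 and 196 TPM. The second Atp5o identifier had 0 counts in both libraries, which allows up to 0.0940 and 0.101 CPM (3 counts in each library's total), and 2.53 TPM on average by the FASTQ route. Atp5g2 was the only complex V member with counts that averaged below 100 TPM.

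Paralogue choice was lopsided in every complex IV pair. Cox4i1 had 417 and 433 TPM against 0.95 and 1.11 TPM for Cox4i2, the isoform of lung and vascular cells, a log2 ratio of 8.56 ± 0.11 (SD, n = 2, with 0.1 TPM added). Cox6a1 had 328 and 349 TPM against 1.91 and 2.14 TPM for Cox6a2, the heart and skeletal muscle isoform, a log2 ratio of 7.32 ± 0.05. Cox7a1, the muscle isoform, had 2.51 and 2.87 TPM against 153 and 155 TPM for Cox7a2, a log2 ratio of -5.79 ± 0.11. As a share of each pair's TPM the tissue isoform was 0.227% and 0.256% for Cox4i2, 0.578% and 0.610% for Cox6a2, and 1.62% and 1.81% for Cox7a1. The libraries do not overlap between the genes of a pair, and the distance between the genes is far larger than the distance between libraries.

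These low values rest on few counts. Cox4i2 had 13 and 14 counts, with exact 95% Poisson intervals of 6.92 to 22.2 and 7.65 to 23.5. Cox6a2 had 24 and 25 counts (15.4 to 35.7 and 16.2 to 36.9), and Cox7a1 had 16 and 17 (9.15 to 26.0 and 9.90 to 27.2). The intervals cover counting error only. Counts of each isoform agree between libraries within them, so all 3 were detected above the 3-count floor at this depth. By the FASTQ route the log2 ratios were 8.65, 7.93 and -7.42.

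The other 4 tissue isoforms were also low. Cox6b1 had 322 and 333 TPM against 2.91 and 2.30 TPM for Cox6b2, a testis isoform with 21 and 18 counts. Cox8a had 3655 and 3463 counts against 2 and 3 for Cox8b, the isoform of heart, skeletal muscle and brown fat. Cox7b2 had 1 and 0 counts, and Cox8c had 0 counts in both libraries. None of these 3 is above the 3-count floor, which is 0.0940 CPM in replicate 1 and 0.101 in replicate 2. No fold is given for them, since their transcripts were at or under that limit at this depth.

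**Figure D2:**
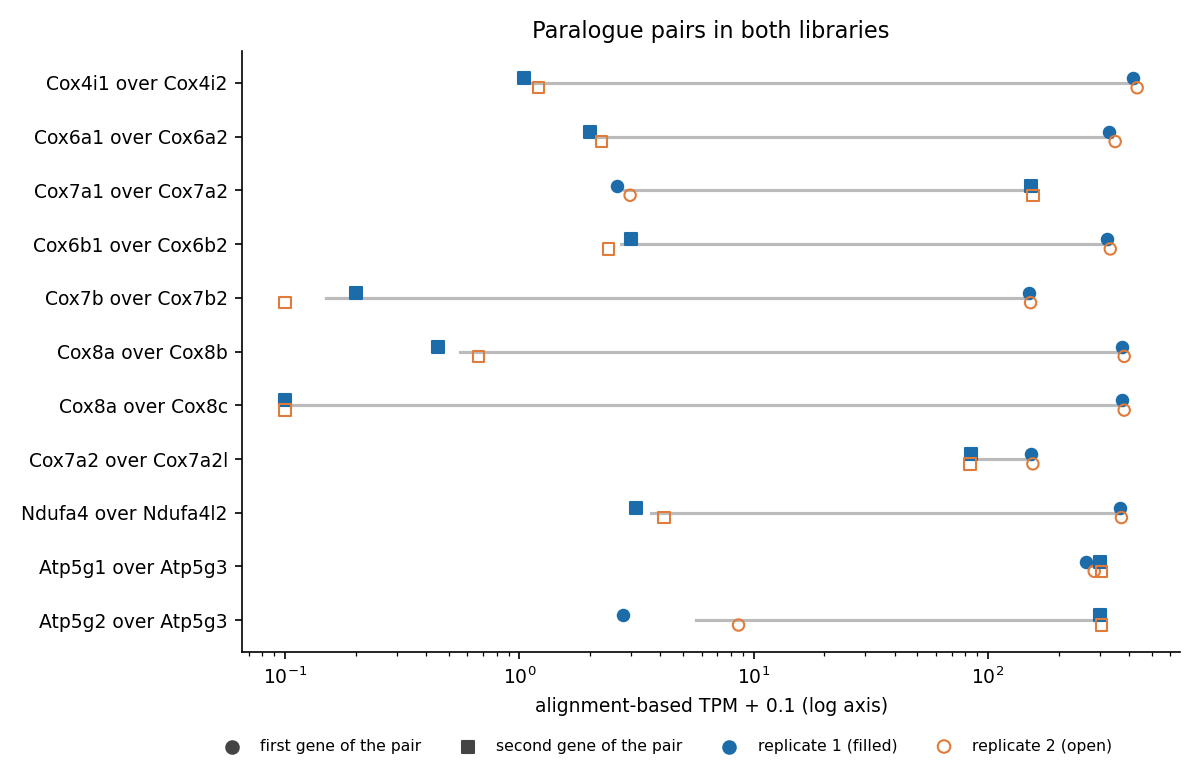
TPM by the alignment route, with 0.1 added, on a log axis for the first gene (circles) and second gene (squares) of 11 paralogue pairs, with replicate 1 filled and replicate 2 open; grey lines join the means. In each complex IV pair of a widely expressed and a tissue isoform, the tissue isoform lies at 2.91 TPM or less, whereas Atp5g1 and Atp5g3 nearly coincide.

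Genes that mark the cells these isoforms are known from were read beside them. Of 8 striated muscle markers 4 reached 1 TPM in both libraries, with summed levels of 18.3 and 19.4 TPM, led by Actn2 at 10.2 and 10.3 TPM, which neurons also express, while Ckm was at 0.12 and 0.13 TPM. All 10 pericyte and smooth muscle markers reached 1 TPM, with summed levels of 131 and 126 TPM and Rgs5 highest at 52.0 and 49.9 TPM. Of the brown fat markers Ucp1 had 0 counts and Cidea had 5.58 and 5.52 TPM. All 4 testis germ cell markers had 0 counts in both libraries. Pvalb, which marks the interneurons in which Cox6a2 has been described in mouse, had 2.96 and 3.34 TPM, and Gad1 of inhibitory neurons had 93.9 and 94.2 TPM. In bulk tissue, fewer cells of a type and less RNA per cell cannot be told apart, and which cells hold these transcripts was not tested.

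The 3 members that are not subunits differed widely. Cox7a2l helps respiratory complexes join into supercomplexes, and its paralogue Cox7a2 had 153 and 155 TPM against 84.6 and 83.9 TPM for Cox7a2l, a log2 ratio of 0.87 ± 0.03. On expected counts, without division by length, that ratio was -0.02, so its direction depends on the length correction. Atp5s, also called coupling factor B, had 9.95 and 13.2 TPM. Ndufa4l2, a gene induced by low oxygen in other cells, was low, with Ndufa4 at 366 and 371 TPM against 3.04 and 4.04 TPM for Ndufa4l2, a log2 ratio of 6.67 ± 0.27.

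Of the c subunit genes, Atp5g3 had 300.1 and 306 TPM and Atp5g1 261 and 284 TPM. Their log2 ratio, Atp5g1 over Atp5g3, was -0.15 ± 0.07, so Atp5g1 was slightly lower in both libraries. Atp5g2 had only 2.66 and 8.52 TPM, a log2 ratio to Atp5g3 of -5.96 ± 1.14, the least repeatable value of any pair. By the FASTQ route Atp5g2 averaged 189.8 TPM and the log2 ratio was -1.37 ± 0.02. The pseudogene with the identical stretch moved the other way: Gm10175 held 1472 and 1260 alignment-based counts against 35.1 and 106 for Atp5g2, but 32.0 and 4.69e-06 FASTQ-based counts against 1217 and 1127. Gene and copy together had 1507 and 1366 alignment-based counts and 1249 and 1127 FASTQ-based counts. The copy therefore held 97.7% and 92.2% of their sum by alignment, and reads of the shared sequence cannot be assigned to either by sequence alone.

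Other members shared reads with copies in the same way. A search of 4291 pseudogene rows with counts by either route found 32 that match 22 members at 90% identity or more over at least 50% of the pseudogene. Pseudogenes without counts, such as Gm10231, were not searched. By alignment, copies held 2.64% of the counts of members and copies together in replicate 1 and 2.62% in replicate 2, and by the FASTQ route 0.178% and 0.164%. In 8 members the copies took more than 5% of the alignment-based counts in both libraries. By the FASTQ route the copy of Ndufa12, Gm15920, held 6.58% and 5.82%, and that of Atp5o, Gm5436, held 4.71% and 5.01%, while in the other members the copies held less than 5% in each library. Ndufb4c, identical over 390 bases to Ndufb4, held 572 and 512 counts, or 59.4% and 54.7% of the sum. Gm12338 and Gm10012 together held 39.5% and 42.1% of the sum with Cox7c, Gm10221 (with 4 lower copies) 23.6% and 30.8% with Atp5l, and BC002163 23.0% and 24.4% with Ndufs5. Alignment-based levels of Atp5g2, Ndufb4, Cox7c, Atp5l, Ndufs5, Atp5h, Cox7a2l and Ndufa12 are thus uncertain by the amount on their copies.

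Comparing the routes over all members, alignment gave lower TPM for 78 of the 82 members at 1 TPM or more by either route. The share of all genes lower by alignment was not counted, so 78 of 82 is no trait of the members. Nuclear protein-coding genes as a whole summed to 462178 and 461143 TPM by alignment, and to 752761 and 750619 TPM by FASTQ. The median log2 ratio, alignment over FASTQ, was -0.77 in replicate 1 and -0.73 in replicate 2, against -0.63 in both over 18483 genes. The members furthest below were Atp5g2 (-5.28), the second Atp5o identifier (-4.67), Ndufb4 (-2.04), Cox7c (-1.88), Atp5j2 (-1.52) and Cox7a2 (-1.45). In the mean of both libraries only Ndufa3 (1.29), Ndufa1 (0.49), Cox7a1 (0.18) and Sdhc (0.07) were higher by alignment. The sign differed between libraries for Cox7a1 (-0.08 and 0.45) and Sdhc (0.18 and -0.05). In the plot of the routes, Atp5g2, Ndufb4 and Cox7c, which lie far below the line, also have the largest shares of counts on copies. For Atp5j2 and Cox7a2 the search found no copy. The TPM ratio was close in shorter and longer members, with a median of -0.72 in 34 with a mean transcript length under 700 bases and -0.73 in 47 longer ones. Counts differed more by length: FASTQ-based counts were a median 71.3% of the expected counts in the shorter members and 99.5% in the longer. Over all protein-coding genes at 1 TPM the count figures were 72.3% and 106%, and the TPM ratios -0.81 and -0.61.

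**Figure D3:**
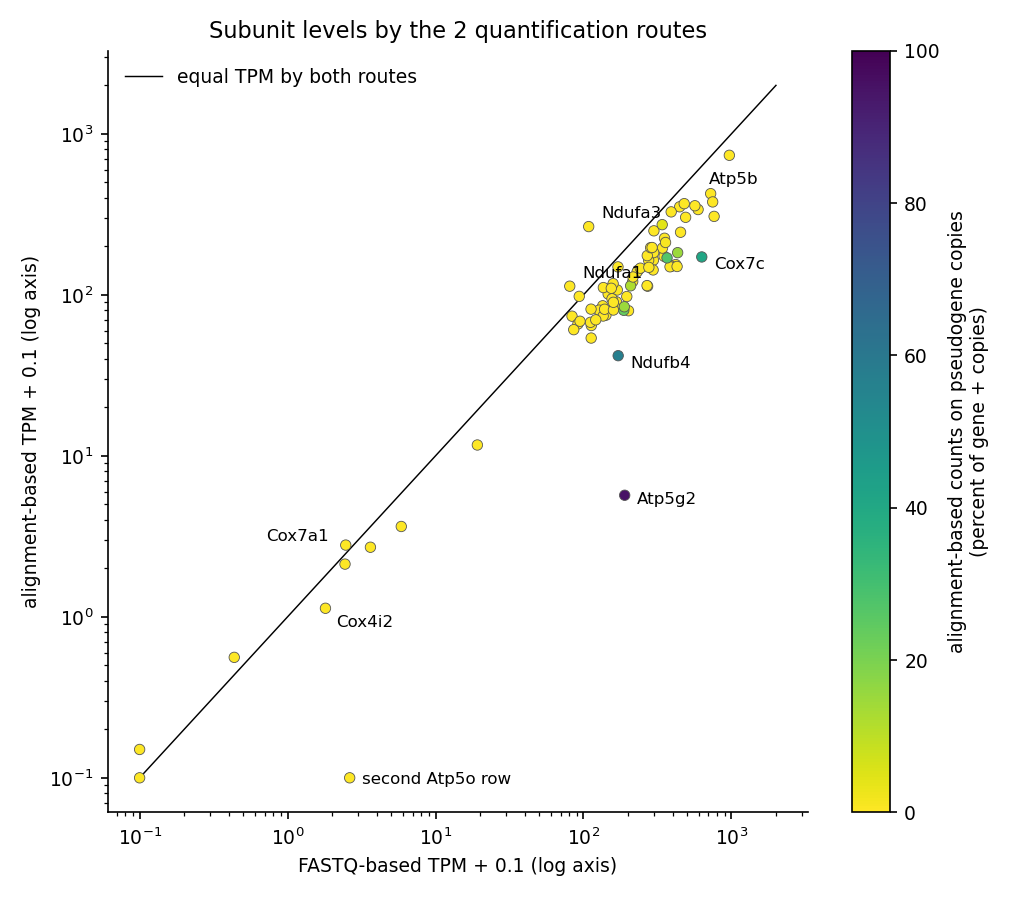
Mean TPM of each member by the alignment route against the FASTQ route, 0.1 added, both axes log; colour is the percent of alignment-based counts on pseudogene copies, out of gene and copies. Atp5g2 lies furthest below the line, at 5.59 TPM by alignment and 189.8 by FASTQ, and Ndufa3 lies above it.

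The routes also placed the same genes on different transcripts. Over all members, protein_coding transcripts held 84.6% and 84.9% of TPM by alignment and 74.3% and 74.0% by the FASTQ route. Retained-intron transcripts held 5.07% and 5.02% by alignment and 11.4% in both libraries by FASTQ. The 5 genes with the lowest FASTQ share were Uqcrh (0%), Atp5k (0.745%), Cox7b (0.876%), Ndufa3 (0.952%) and Ndufa7 (2.24%). By alignment the share was 78.5% for Uqcrh, 96.4% for Atp5k, 43.7% for Cox7b, 6.69% for Ndufa3 and 84.2% for Ndufa7. Atp5j (10.9% by alignment, 75.5% by FASTQ) and Cox5b (44.0% and 90.6%) went the other way. For the 5 lowest genes the difference between routes exceeded the spread between libraries, but picking them for a low FASTQ share favours such a difference.

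Single transcripts show where the TPM went. Atp5k, the e subunit of the ATP synthase, had 185 and 192 TPM by alignment on its 371-base coding transcript, and 277 and 287 TPM by FASTQ on a 563-base retained-intron transcript. Cox6a1 had 322 and 342 TPM by alignment on its 571-base coding transcript, and 496 and 521 TPM by FASTQ on a 620-base retained-intron one. Ndufa3 was placed by alignment on a 343-base transcript of the nonsense-mediated decay class, which held 90.8% and 92.8% of its TPM, and by FASTQ on a 782-base retained-intron transcript with 85.3% and 86.5%. These shares were close between libraries within a route and far apart between routes, and no splicing state can be read from them. Gene totals can be affected too, since TPM divides by the length of the transcript chosen.

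**Figure D4:**
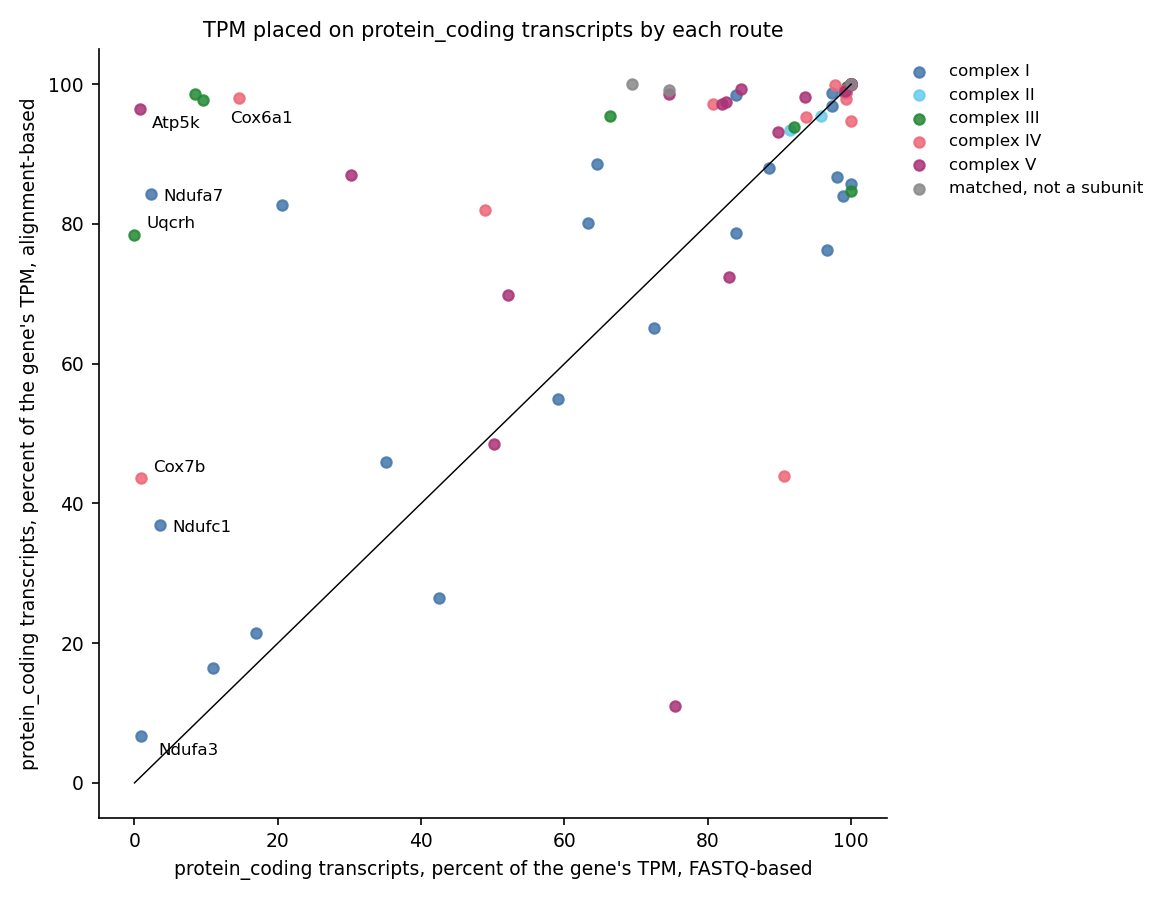
Percent of each member's TPM on protein_coding transcripts by the alignment route against the FASTQ route, as the mean of both libraries, coloured by complex. Atp5k and Cox6a1 lie at the top left (96.4% and 98.0% by alignment, 0.745% and 14.5% by FASTQ), and the line marks equal shares.

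Between the libraries the members were nearly level. Counts of replicate 1 were compared with those of replicate 2 by an exact binomial test on rounded expected counts, scaled by TMM (trimmed mean of M-values) and adjusted by the Benjamini-Hochberg method over the 12879 genes whose counts averaged 100 or more. The test reads the spread of counting only and compares these 2 libraries. Of 75 members tested, 2 were called at an adjusted p under 0.05 (2.67%), against 11.8% of all genes tested. Both were lower in replicate 1, where 6.28% of all genes were called lower, and no member was called at 2-fold or more, against 0.303% of all genes. Without adjustment, 17 members (22.7%) had p under 0.05, against 23% of all genes tested.

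The members called were Ndufb2 and Atp5g1. Ndufb2, a membrane-arm subunit of complex I (chromosome 6, 39592574 to 39603382, mm10), had 902 and 955 counts in replicates 1 and 2, a log2 ratio of -0.20 (exact test, adjusted p = 0.0347). Atp5g1 had 3084 and 3069 counts, in a larger library for replicate 1, a log2 ratio of -0.11 (exact test, adjusted p = 0.0375). Both changes are small, and Atp5g1 lost its call on FASTQ-based counts, where its log2 ratio was -0.04. On those counts 2 of 76 members were called, Ndufb2 and Uqcr11, against 11.9% of all genes. With the filter lowered to a mean count of 10, 3 of 81 members were called, against 8.78% of all genes, the addition being Atp5g2 with a log2 ratio of -1.70. Summed with Gm10175, its log2 ratio was 0.03.

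Over the 75 members, log2 ratios of replicate 1 over replicate 2 ranged from -0.23 to 0.14, with 29 above 0 and 46 below, and a median of -0.010, against a median of -0.00027 over all genes. The median size of the ratio was 0.035, against 0.070 over all genes, at a median count of 1621 for members and 808.5 for all genes. Complex medians were -0.02 for I, 0.02 for II, -0.0044 for III, -0.03 for IV and -0.0021 for V. The 3 members on the X chromosome, Ndufa1, Ndufb11 and Cox7b, had log2 ratios of -0.06, -0.12 and 0.01 and were not called. The counts of Xist are given above. The libraries did differ in cell markers. Of the markers tested, 4 of 6 of excitatory neurons and 3 of 5 of astrocytes were called lower in replicate 1, against 6.28% of all genes. Summed TPM was 2145 and 2328 for the neuronal and 1278 and 1367 for the astrocyte list. Of 5 GABAergic and parvalbumin interneuron markers tested, 0 were called. In replicate 1, 1 of 10 pericyte and smooth muscle markers and 1 of 3 striated muscle markers tested were called higher. Over all genes, 11.8% were called in either direction. With 1 gene called in each list, no difference in these cells is read from them. All 4 red cell genes tested were higher in replicate 1 and all 4 myelin genes tested were lower, with summed TPM of 920.0 and 544 for red cell genes and 156 and 281 for myelin genes. Ttr, of choroid plexus, had 189 and 7445 counts. The part of these in the 2 calls was not tested.

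**Figure D5:**
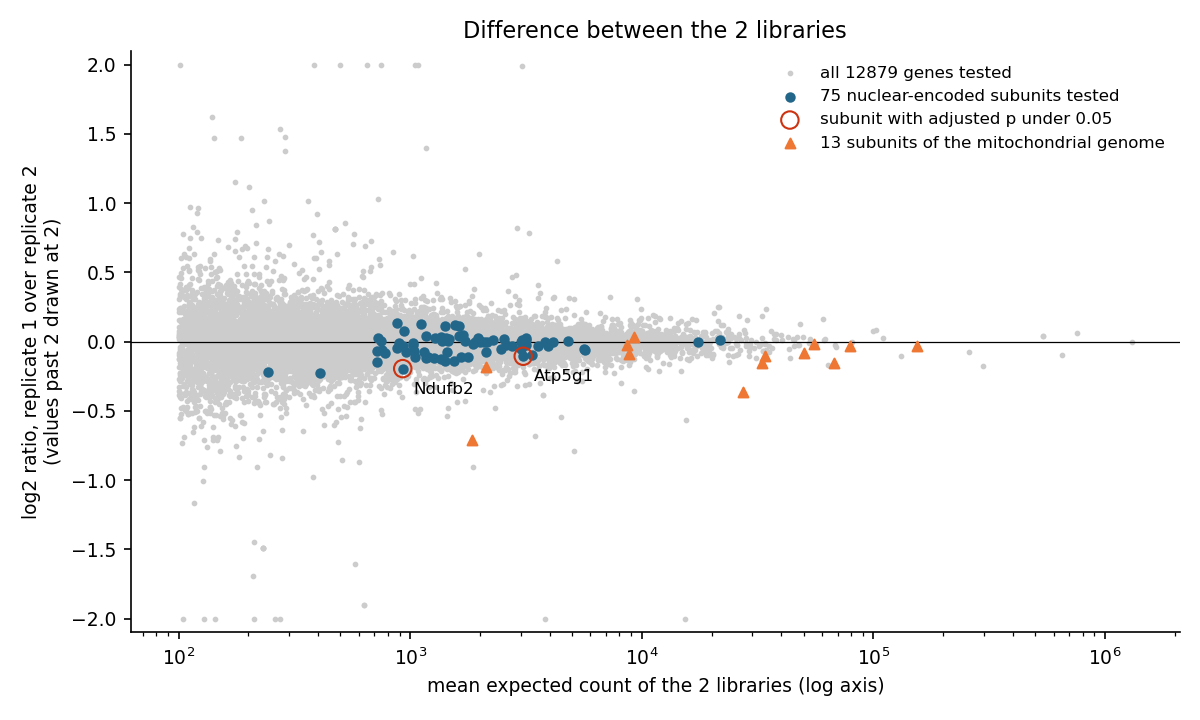
Log2 ratio of replicate 1 over replicate 2 against mean expected count (log axis) for all 12879 genes tested (grey), 75 nuclear-encoded subunits (blue) and 13 subunits of the mitochondrial genome (triangles). The nuclear-encoded subunits lie between -0.23 and 0.14, with Ndufb2 and Atp5g1 circled, while mt-Co2 lies lowest of the triangles at -0.71 on these alignment-based counts.

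Partners of the members were read from lists chosen by function. The 13 protein-coding genes of the mitochondrial genome had medians of 2267 and 2210 TPM, with mt-Co1 at 5060 and 5139 TPM and mt-Atp8 at 3928 and 3969 TPM. By the FASTQ route mt-Atp8 had 0 counts in both libraries, and mt-Nd4l and mt-Nd3 averaged 0.437 and 3.24 TPM, against 2239 and 1691 TPM by alignment. Of the 13 genes, 10 were called, all lower in replicate 1, where 6.28% of all genes tested were called lower. Furthest was mt-Co2, with 1468 and 2221 counts, a log2 ratio of -0.71 (exact test, adjusted p = 4.39e-47). The next was mt-Co3, at 25025 and 29761 counts and -0.36, and the other called genes lay between -0.18 and -0.03. On FASTQ-based counts mt-Atp8, mt-Nd4l and mt-Nd3 were too low to be tested and 6 of the other 10 were called, against 11.9% of all genes tested. There mt-Co2 had 5813 and 5535 counts, a log2 ratio of -0.05, and was not called (exact test, adjusted p = 0.334), whereas mt-Co3 was called at -0.25 (exact test, adjusted p = 2e-75). The nuclear-encoded and the mitochondrial subunits of the same complexes had different numbers of calls, at very different depths. The test calls smaller ratios at higher counts, so these numbers of calls cannot be compared. The difference between the sets was not tested.

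Of the genes that the symbols miss, Ndufab1, Cyc1, Usmg5 and Atpif1 had levels within the range of the members, and Cycs was lower than most of them by alignment. Ndufab1, the acyl carrier protein of complex I, had 134 and 136 TPM, Cyc1, cytochrome c1 of complex III, 106 and 109 TPM, and Usmg5, a membrane subunit of the ATP synthase, 371 and 373 TPM. Atpif1, the inhibitor of the ATP synthase, had 326 and 312 TPM, and Cycs, cytochrome c, only 23.2 and 23.6 TPM. The level of Cycs depended on the route, at 289 and 283 TPM by FASTQ, a log2 ratio of -3.61 for alignment over FASTQ. None of the 4 listed (Ndufab1, Cyc1, Cycs and Atpif1) was called. Assembly factors, which build the complexes without staying in them, were lower: 48 of 48 reached 1 TPM, with medians of 15.4 and 16.4 TPM. Uqcc2 was highest at 75.1 and 79.2 TPM, then Cox14 at 43.7 and 47.7 TPM, and Sdhaf3 lowest at 2.05 and 1.63 TPM. Of 46 tested, only Atpaf1, a chaperone of the F1 head, was called, with 433 and 500.2 counts and a log2 ratio of -0.32 (exact test, adjusted p = 0.00959). On FASTQ-based counts its log2 ratio was -0.22, and it was not called (exact test, adjusted p = 0.092), nor was any other of the 46 tested there. The 12 regulators of mitochondrial biogenesis had medians of 16.9 and 15.1 TPM, with Polg highest at 37.4 and 33.2 TPM, Yy1 at 24.0 and 22.1 TPM and Ppargc1b lowest at 5.90 and 7.02 TPM, and none was called.

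Promoters of the members were searched for letters bound by factors known for respiratory genes. RefSeq sequences of 250 bases before to 50 after the start (GRCm38.p6) were matched for 68 of the 84 symbols, 2 of them by synonym. On either strand, the NRF1 type GCGCANGCG was present in 29.4% of these 68 genes, against 15.2% of 10182 genes detected in hippocampus and 7.03% of all 27025 genes with a promoter entry. The ETS type CCGGAAG was present in 23.5%, against 19.4% and 9.93%, and the YY1 type AAGATGGCG in 10.3%, against 3.50% and 1.64%. The cAMP response element TGACGTCA was in 5.88%, against 3.64% and 2.03%. The Sp1 type GGGCGG was in 41.2%, against 70.1% and 38.2%, and TATAAA in 10.3%, against 8.29% and 15.7%. These are shares of windows holding the letters, with no test, and a gene with several entries counts once if any holds them.

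The NRF1 type was in 8 of 31 complex I genes, 2 of 3 of complex II, 2 of 5 of complex III, 1 of 13 of complex IV and 7 of 14 of complex V. The YY1 type was in 5 complex I and 2 complex V genes and in none of the other genes matched. Complex IV promoters are printed here as examples of widely expressed genes beside a tissue isoform, and do not stand for the complex. Among the 13 complex IV genes matched, only Cox6a1 held the NRF1 type, and the ETS type was in 3 of 13. Cox4i1, Cox4i2, Cox6a2, Cox6c and Cox8c had no matched promoter and were not searched. Widely expressed Cox5b, Cox7b, Cox7c and Ndufa4 held none of the 6 motifs, nor did the tissue isoform Cox7a1. Cox5a and Cox7a2 held only the Sp1 type. Sequences read 5′ to 3′ on the gene's strand, with every match to the 6 motifs in capitals. Cox6a1 is chr5:115348909-115349208, Cox8a chr19:7217567-7217866 and Cox8b chr7:140900397-140900696, all on the minus strand.
Cox6a1: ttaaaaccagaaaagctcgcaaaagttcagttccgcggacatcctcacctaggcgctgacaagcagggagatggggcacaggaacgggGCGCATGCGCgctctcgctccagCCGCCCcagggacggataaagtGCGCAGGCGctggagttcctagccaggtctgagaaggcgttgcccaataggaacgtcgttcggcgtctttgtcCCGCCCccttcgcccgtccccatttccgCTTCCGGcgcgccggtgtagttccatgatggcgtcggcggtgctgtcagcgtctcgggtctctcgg
Cox8a: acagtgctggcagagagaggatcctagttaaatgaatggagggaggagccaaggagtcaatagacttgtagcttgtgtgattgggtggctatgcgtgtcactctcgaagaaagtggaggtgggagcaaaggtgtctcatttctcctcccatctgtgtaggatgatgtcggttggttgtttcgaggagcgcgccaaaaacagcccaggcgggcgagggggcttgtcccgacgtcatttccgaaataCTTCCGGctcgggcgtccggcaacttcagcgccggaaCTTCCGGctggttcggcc
Cox8b: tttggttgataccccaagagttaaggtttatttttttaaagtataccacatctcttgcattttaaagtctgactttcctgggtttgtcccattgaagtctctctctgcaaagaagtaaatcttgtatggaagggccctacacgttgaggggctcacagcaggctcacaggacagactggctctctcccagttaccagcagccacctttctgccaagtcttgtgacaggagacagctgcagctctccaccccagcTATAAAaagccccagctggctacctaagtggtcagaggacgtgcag
Cox6a1 holds NRF1-type letters at 2 places, the first of which reads on both strands and so overlaps itself, together with Sp1-type and ETS-type letters. Cox8a holds 2 ETS-type matches on the opposite strand. Cox8b, which had 2 and 3 counts, holds only TATAAA, which begins 4 bases after the annotated start and not before it. A match is a description of letters, and no factor's binding was measured here.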

How the data were processed

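Total RNA-seq of 2 hippocampus libraries was used. Per the deposited descriptions, the authors aligned reads to the transcriptome (mm10, GENCODE M21) and deposited expected counts and TPM per gene and per transcript, and separately estimated counts and TPM per transcript from the FASTQ reads, summed here per gene. Which tools and versions made them is not stated in those descriptions. Of the gene tables, the 55536 annotated genes were kept; 97 spike-in rows (0.358% and 0.359% of counts) and 26248 rows named by a number were left out of tests. Levels are the deposited TPM, with an SD over 2 libraries, and log2 ratios use a pseudocount of 0.1 TPM.

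Libraries were compared on expected counts rounded to whole numbers, by 2-sided exact binomial tests (scipy 1.17.1) with TMM factors (edgeR 4.0.16) on genes averaging 100 counts or more, Benjamini-Hochberg adjusted, with a prior count of 0.5 in ratios. With 1 group, no replicated count model was fitted. The test was checked on simulated counts that had counting spread only and known changes far larger than those of the members called. That check does not bear on calls of such small size or on spread beyond counting. DESeq2 1.42.0 size factors, library totals, other filters and the FASTQ route were alternatives. Pseudogene copies were found with BLAST 2.17.0, and promoter and coding letters were read from RefSeq and GENCODE sequences.

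Members, lists, pairs and motifs were chosen with earlier results of these data known. Genes named are, per complex, the 3 highest and 2 lowest by mean TPM, both genes of 11 pairs, the matched genes that are not subunits, the members called, those furthest apart between routes, the 5 lowest in coding-transcript share, and the extremes of each list. 1 gene that this choice names is not reported here. Other genes were named after their values were seen.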

Additional observations from a re-analysis of the deposited data

How the results depend on the processing

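With alternative settings tried 1 at a time, the directions of the Cox4i1, Cox6a1 and Cox7a1 ratios held under the FASTQ route, a pseudocount of 1 TPM, expected counts and either library alone. FASTQ-based TPM moved the medians of complexes I to V to 156, 126, 291, 392 and 338 TPM. By that route nuclear protein-coding genes as a whole also summed higher, at 752761 and 750619 TPM against 462178 and 461143 by alignment. Assignment by symbol prefix gave 152 TPM for complex IV and 172 TPM for complex V, and members of at least 1 TPM gave 225 and 179 TPM. The Cox4i1 over Cox4i2 log2 ratio was 7.71 with a pseudocount of 1 TPM and 8.66 on expected counts. Cox6a1 over Cox6a2 was 7.93 by FASTQ-based TPM, 6.81 with the pseudocount and 7.06 on expected counts. Cox7a1 over Cox7a2 was -7.42, -5.39 and -6.64 under the same settings. Cox7a2 over Cox7a2l turned to -0.023 on expected counts, which are not divided by length. The called members numbered 1 with library totals (Ndufb2) and 1 with no filter on low counts (Atp5g2), against 2 in the fit reported, and all genes called numbered 1451 to 1624. The median log2 ratio of members stayed between -0.022 and -0.0046. The member share of nuclear protein-coding TPM was 2.77% by the FASTQ route and 0.725% on expected counts, and the protein_coding transcript share was 84.8% by alignment. No paired analysis was possible because there is 1 group. The causes of these moves were not tested.

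Depth limits the tissue isoforms, which had 25 counts or fewer in each library, and 2 libraries limit every SD. Replicate 2 goes against its sex label, and both libraries come from bulk tissue.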
